A study of Homo sapiens with 11 samples.

Results

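NRF2, the transcription factor encoded by NFE2L2, drives the main antioxidant and detoxification programme of animal cells. The values of NFE2L2, of its inhibitor KEAP1 and of 8 genes it is known to activate were followed across all 11 libraries. The 10 genes, chosen by name, were NFE2L2, KEAP1, HMOX1, NQO1, GCLC, GCLM, SRXN1, TXNRD1, SLC7A11 and OSGIN1, and each matched 1 row of the 40460 Ensembl genes in the deposited table. All 10 passed the filter on low values, which kept 17945 genes with a log2 value of at least 3.32 in at least 2 libraries. Total RNA of hTert-HME1 cells, a mammary epithelial line immortalised with telomerase (hTert), was sequenced at passage 6 after removal of ribosomal RNA. The libraries fall into 4 groups, 3 labelled BRCA2 siRNA without EGF (replicates A, B and C), 2 control siRNA without EGF (A and C), 3 labelled BRCA2 siRNA with EGF and 3 control siRNA with EGF (A, B and C each). EGF is the epidermal growth factor of the complete mammary epithelial medium. All cells were transfected, and each siRNA was a single one (siB2-1 or control-2). The labels call A, B and C biological replicates of this 1 line.

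The values are on the log2 scale of the deposited table, so a difference of 1 is a doubling. Without counts in that table, library depth cannot be known. In each gene the 4 libraries of replicate A average the same as the other 7 (largest difference 7.2e-09). The values were therefore adjusted by replicate before deposit, by a step that is not stated. Whether A, the others or both were moved cannot be known. The reported fit has no term for that step, so its standard errors could be too small. The libraries labelled BRCA2 siRNA showed no lower BRCA2. It had log2 values of 12.43, 12.37 and 12.40 in those with EGF, against 12.45, 12.13 and 12.48 under control siRNA. Without EGF it had 12.48, 12.27 and 12.11 in the libraries labelled BRCA2 siRNA, against 11.44 and 11.65 under control siRNA (difference 0.74 ± 0.13, limma adjusted p = 0.00397, 0.0685 without control siRNA without EGF replicate A and 0.399 with replicates B and C alone). The siRNA labels are therefore used as names only. All 9 basal epithelial markers passed the filter, with KRT5 at 17.21 to 18.78 and TP63 at 13.01 to 14.04. Of 7 luminal markers 4 passed, with KRT8 at 10.51 to 11.41 and KRT18 at 10.94 to 11.98. GATA3 stood at 4.14 to 5.32 and ESR1 at 5.34 to 6.17, while KRT19, EPCAM and ELF5 were under the filter. Of 4 leukocyte markers 1 passed (CD14), with PTPRC at 2.33 to 3.10. Of 3 endothelial markers 1 passed, KDR at 7.31 to 10.40, with CDH5 at -0.30 to -0.01 and VWF at 2.74 to 3.70. Of 7 fibroblast markers, 6 passed the filter, and the log2 of their summed level was 11.84 to 12.56 (labelled BRCA2 siRNA) and 13.04 to 13.16 (control siRNA) without EGF. With EGF it was 10.85 to 11.01 (labelled BRCA2 siRNA) and 10.69 to 11.06 (control siRNA). The log2 of the summed basal markers was 19.34 to 19.52 (labelled BRCA2 siRNA) and 19.67 to 19.82 (control siRNA) without EGF, against 18.86 to 19.02 and 18.79 to 19.00 with EGF. For the leukocyte markers it was 4.60 to 4.79 and 5.27 to 5.80 without EGF, against 3.96 to 4.43 and 3.92 to 4.43 with EGF. The endothelial sum, mostly KDR, stood at 8.07 to 8.71 and 10.16 to 10.41 without EGF, against 7.45 to 8.42 and 7.39 to 8.56 with EGF. All of these ranges lay higher without EGF within each siRNA, except that the endothelial ranges overlapped in the libraries labelled BRCA2 siRNA. The summed luminal markers went the other way, but the single markers under control siRNA were mixed. In the libraries labelled BRCA2 siRNA their summed level was 12.02 to 12.16 without EGF, lower than 12.49 to 12.53 with it. Under control siRNA it was 12.19 to 12.22 against 12.36 to 12.62, also lower without EGF. Of the 4 tested as single genes, 2 rose under control siRNA (KRT8 by 0.45 and GATA3 by 0.73) and KRT18 fell (-0.93). In the libraries labelled BRCA2 siRNA 0 rose and 2 fell (KRT8 at -0.31 and KRT18 at -0.50). These were calls at a limma adjusted p under 0.05. The part of these markers in the results that follow was not tested.

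In unstressed cells KEAP1, an adaptor of the CUL3 ubiquitin ligase, binds NRF2 and directs it to degradation. Electrophiles and oxidants modify cysteines of KEAP1, NRF2 then accumulates and, paired with a small MAF protein, binds antioxidant response elements (AREs) near its target genes. Control is largely at the level of the NRF2 protein, which was not measured here. Its targets make glutathione, recycle thioredoxin and peroxiredoxins, reduce quinones and degrade heme. Several are also read by other factors, among them BACH1 at HMOX1 and ATF4 at SLC7A11.

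The RefSeq promoter table (GRCh38.p14, 250 bases before to 50 after each start) held 8 of the 10 genes, all but HMOX1 and SLC7A11. The core of the ARE, TGACNNNGC on one strand or GCNNNGTCA on the other, was searched on both strands. It lies in 13.3% of the 35116 promoters of 300 bases in that table and in 2 of these 8, GCLM and TXNRD1. Shown are 159 bases (150 before the start and 9 from it) of these promoters and of GCLC, whose product forms 1 enzyme with that of GCLM. The windows are chr6:53545093-53545251 (GCLC, minus strand), chr1:93909422-93909580 (GCLM, minus strand) and chr12:104215629-104215787 (TXNRD1, plus strand), each written 5′ to 3′ along its gene with matches to the ARE core in capitals.
GCLC: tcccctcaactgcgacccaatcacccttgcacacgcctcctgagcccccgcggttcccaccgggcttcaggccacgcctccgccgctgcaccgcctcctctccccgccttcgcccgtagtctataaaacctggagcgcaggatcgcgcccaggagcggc
GCLM: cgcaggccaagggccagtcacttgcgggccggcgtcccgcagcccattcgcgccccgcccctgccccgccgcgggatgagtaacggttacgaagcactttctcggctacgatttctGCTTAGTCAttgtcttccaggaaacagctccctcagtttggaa
TXNRD1: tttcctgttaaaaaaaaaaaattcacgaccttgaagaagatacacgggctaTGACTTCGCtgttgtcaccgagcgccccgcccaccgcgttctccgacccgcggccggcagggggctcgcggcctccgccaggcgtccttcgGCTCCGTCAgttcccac
GCLM holds GCTTAGTCA at -34 to -26 from the start. TXNRD1 holds TGACTTCGC at -99 to -91 and GCTCCGTCA at -8 to 1. The AP-1 motif TGANTCA, which reads the same on both strands, lies in 7.71% of the promoters and in 1 of the 8, OSGIN1, as TGACTCA at -97 to -91. No ARE match overlapped an AP-1 match. A match describes letters and is not a measured binding site, and a window without one says nothing about elements elsewhere at the gene.

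Among the 10 genes HMOX1 moved most with EGF. It encodes heme oxygenase 1, which cleaves heme into biliverdin, iron and carbon monoxide. In the libraries labelled BRCA2 siRNA its log2 values were 9.78, 10.08 and 10.16 without EGF, against 8.95, 8.19 and 9.13 with EGF. Under control siRNA they were 10.38 and 10.28 without EGF, against 8.01, 8.20 and 8.91 with EGF. All 5 libraries without EGF lay above all 6 with EGF, and the groups did not overlap under either siRNA. HMOX1 rose without EGF by 1.25 ± 0.26, or 2.38-fold, in the libraries labelled BRCA2 siRNA (n = 3 and 3, limma adjusted p = 0.00645). Under control siRNA it rose by 1.95 ± 0.29, or 3.88-fold (n = 2 and 3, limma adjusted p = 0.000275). In bulk RNA, a change in the number of cells that express a gene and a change in its RNA per cell cannot be told apart. The rise was 0.83 within replicate A and 1.46 within B and C for the libraries labelled BRCA2 siRNA, and 2.37 within A and 1.72 within B and C under control siRNA. Fitted to replicates B and C alone, where control siRNA without EGF is a single library assumed to vary like the others, both calls ended (limma adjusted p = 0.115 and 0.0542). Over all 19 alternatives the adjusted p ran between 0.00158 and 0.115 for the libraries labelled BRCA2 siRNA and between 4.58e-05 and 0.0542 under control siRNA.

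**Figure D1:**
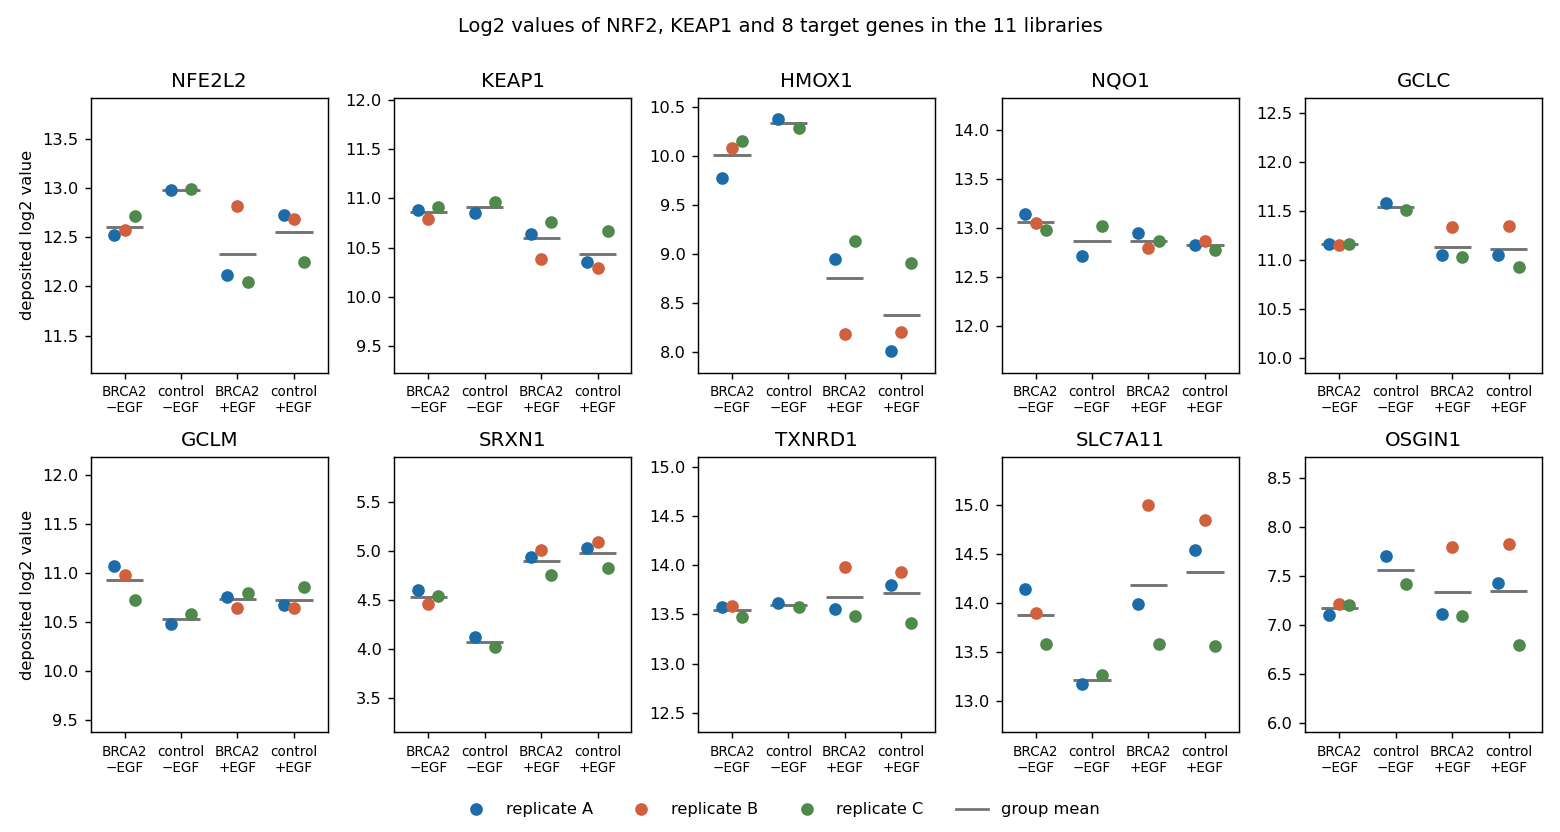
Deposited log2 value (vertical axis) of NFE2L2, KEAP1 and the 8 target genes in each library, by group along the horizontal axis, coloured by replicate, with the group mean as a bar; every panel has its own range. HMOX1 lies between 9.78 and 10.38 in the 5 libraries without EGF and between 8.01 and 9.13 in the 6 with EGF, and SRXN1 shows the opposite order.

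NFE2L2, the gene of the factor itself, did not pass the test on EGF withdrawal under either siRNA. Its log2 values were 12.52, 12.57 and 12.71 without EGF in the libraries labelled BRCA2 siRNA, against 12.11, 12.82 and 12.05 with EGF. Under control siRNA they were 12.98 and 13.00 without EGF, against 12.72, 12.69 and 12.25 with EGF. Replicate B with EGF was the highest of the 6 libraries labelled BRCA2 siRNA, so those groups overlapped, whereas both control libraries without EGF lay above the 3 with EGF. The differences were 0.27 ± 0.19 for the libraries labelled BRCA2 siRNA (limma adjusted p = 0.288) and 0.43 ± 0.21 under control siRNA (limma adjusted p = 0.104). Without BRCA2 siRNA with EGF replicate B they were 0.52 and 0.43 and both passed the threshold (limma adjusted p = 0.0171 and 0.0159). Under quantile normalization the control difference was 0.69 and passed (adjusted p = 0.0105).

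KEAP1, the inhibitor, had log2 values of 10.88, 10.79 and 10.91 without EGF in the libraries labelled BRCA2 siRNA, against 10.64, 10.38 and 10.76 with EGF. With control siRNA the values were 10.85 and 10.97 without EGF, against 10.35, 10.29 and 10.66 with EGF. The libraries without EGF lay above those with EGF under both siRNAs, by little in the libraries labelled BRCA2 siRNA, where the nearest pair stood at 10.79 and 10.76. KEAP1 rose under control siRNA by 0.47 ± 0.13, or 1.39-fold (n = 2 and 3, limma adjusted p = 0.0116). The difference was 0.27 ± 0.12 in the libraries labelled BRCA2 siRNA (n = 3 and 3, limma adjusted p = 0.114). The control call ended without control siRNA without EGF replicate C (0.42, adjusted p = 0.0883) and with replicates B and C alone (0.49, adjusted p = 0.204), over a range of 0.00162 to 0.204 for its 19 alternatives.

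The glutathione genes did not move together. GCLC, the catalytic subunit of glutamate-cysteine ligase, which makes the first step of glutathione synthesis, rose under control siRNA. SLC7A11, the cystine/glutamate antiporter subunit that brings in cystine for that synthesis, fell. GCLM, the modifier subunit of the same ligase, passed the threshold under neither siRNA on EGF withdrawal. None of the 3 was called in the libraries labelled BRCA2 siRNA.

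GCLC had log2 values of 11.17, 11.16 and 11.17 without EGF in the libraries labelled BRCA2 siRNA, against 11.05, 11.33 and 11.03 with EGF, which overlapped. In the control libraries it had 11.58 and 11.52 without EGF, against 11.06, 11.35 and 10.93 with EGF. The 2 control libraries without EGF were the highest of all 11. The differences were 0.03 ± 0.11 in the libraries labelled BRCA2 siRNA (limma adjusted p = 0.882) and 0.43 ± 0.13, or 1.35-fold, under control siRNA (limma adjusted p = 0.0143). The control call ended without control siRNA without EGF replicate A (0.40, adjusted p = 0.0914), without replicate C of that group (0.46, adjusted p = 0.0551) and with replicates B and C alone (0.37, adjusted p = 0.294). Its 19 alternatives ran between 0.000687 and 0.294 in adjusted p, the lowest under quantile normalization, where the difference was 0.66.

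GCLM had log2 values of 11.07, 10.98 and 10.72 without EGF in the libraries labelled BRCA2 siRNA, against 10.75, 10.64 and 10.80 with EGF. With control siRNA it had 10.48 and 10.58 without EGF, against 10.67, 10.64 and 10.85 with EGF. Here the control libraries without EGF were the lowest of all 11, the reverse of GCLC, and replicates A and B labelled BRCA2 siRNA without EGF were the highest. The differences were 0.20 ± 0.10 in the libraries labelled BRCA2 siRNA (limma adjusted p = 0.167) and -0.19 ± 0.11 under control siRNA (limma adjusted p = 0.175).

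SLC7A11 had log2 values of 14.14, 13.89 and 13.58 without EGF in the libraries labelled BRCA2 siRNA, against 13.99, 14.99 and 13.58 with EGF. Under control siRNA it had 13.17 and 13.26 without EGF, against 14.53, 14.84 and 13.56 with EGF. The 2 control libraries without EGF were the lowest of all 11, and replicate B was the highest library with EGF under either siRNA. The differences were -0.31 ± 0.36 in the libraries labelled BRCA2 siRNA (limma adjusted p = 0.537) and -1.10 ± 0.40, or 0.467-fold, under control siRNA (limma adjusted p = 0.0396). That control call lay close to the threshold. It ended under quantile normalization (-0.80, adjusted p = 0.0878), with a term for replicate A (-1.12, adjusted p = 0.0503), without the trend (adjusted p = 0.0542) and with replicates B and C alone (-0.94, adjusted p = 0.379). Among single libraries it ended without BRCA2 siRNA without EGF replicates A (adjusted p = 0.0502) or B (0.0543), control siRNA without EGF replicates A (0.151) or C (0.118), BRCA2 siRNA with EGF replicate A (0.0522) and control siRNA with EGF replicates A (0.108) or B (0.116). The adjusted p ran between 0.00429 and 0.379 over its 19 alternatives.

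SRXN1 encodes sulfiredoxin, which restores over-oxidised peroxiredoxins, and it fell under control siRNA. Its log2 values were 4.60, 4.46 and 4.54 without EGF in the libraries labelled BRCA2 siRNA, against 4.93, 5.01 and 4.75 with EGF. Under control siRNA they were 4.12 and 4.02 without EGF, against 5.02, 5.09 and 4.83 with EGF. All 5 libraries without EGF lay below all 6 with EGF, with the control libraries lowest. The differences were -0.37 ± 0.14 in the libraries labelled BRCA2 siRNA (limma adjusted p = 0.0645) and -0.91 ± 0.15, or 0.532-fold, under control siRNA (limma adjusted p = 0.000585). SRXN1 stands near the filter minimum of 3.32, where the unnamed log2 transform could compress differences. With replicates B and C alone the control call ended (-0.94, adjusted p = 0.0634), within a range of 0.000121 to 0.0634 over its 19 alternatives. In the libraries labelled BRCA2 siRNA it passed under quantile normalization (-0.58, adjusted p = 0.0168) and without the trend (adjusted p = 0.0282).

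TXNRD1 encodes the cytosolic thioredoxin reductase, a selenoprotein that keeps thioredoxin reduced with NADPH. It had log2 values of 13.57, 13.59 and 13.47 without EGF in the libraries labelled BRCA2 siRNA, against 13.56, 13.99 and 13.48 with EGF. With control siRNA it had 13.62 and 13.58 without EGF, against 13.80, 13.93 and 13.42 with EGF. Its groups overlapped in both comparisons, and the 5 libraries without EGF lay within the range of the 6 with EGF. The differences were -0.13 ± 0.15 in the libraries labelled BRCA2 siRNA (limma adjusted p = 0.513) and -0.11 ± 0.16 under control siRNA (limma adjusted p = 0.578), and they turned positive under quantile normalization (0.03 and 0.19).

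NQO1, a quinone reductase of the cytosol and a common readout of NRF2 activity, varied least, by 0.43 over the 11 libraries. It had log2 values of 13.14, 13.05 and 12.98 without EGF in the libraries labelled BRCA2 siRNA, against 12.95, 12.80 and 12.86 with EGF. Under control siRNA it had 12.71 and 13.01 without EGF, against 12.82, 12.86 and 12.78 with EGF. The libraries labelled BRCA2 siRNA did not overlap between media, while the 2 control libraries without EGF lay on either side of the 3 with EGF. The differences were 0.19 ± 0.09 (limma adjusted p = 0.133) and 0.04 ± 0.10 (limma adjusted p = 0.762) for the libraries labelled BRCA2 siRNA and control siRNA. Under quantile normalization both passed (0.34 and 0.30, adjusted p = 0.0155 and 0.0205), and the control difference was -0.11 without control siRNA without EGF replicate C.

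OSGIN1, an oxidative stress-induced inhibitor of growth, had log2 values of 7.10, 7.22 and 7.21 without EGF in the libraries labelled BRCA2 siRNA, against 7.11, 7.80 and 7.09 with EGF. Under control siRNA it had 7.70 and 7.42 without EGF, against 7.43, 7.82 and 6.80 with EGF. Its groups overlapped under both siRNAs, and replicate B with EGF was the highest in each. The differences were -0.16 ± 0.25 in the libraries labelled BRCA2 siRNA (limma adjusted p = 0.662) and 0.21 ± 0.28 under control siRNA (limma adjusted p = 0.552). Without the replicate B library with EGF labelled BRCA2 siRNA the first was 0.08, and without control siRNA with EGF replicate C the second was -0.07.

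Counted together, 1 of the 10 genes rose and 0 fell on EGF withdrawal in the libraries labelled BRCA2 siRNA, against 27.1% of all 17945 genes called there (13.4% higher and 13.8% lower). Under control siRNA 3 rose (HMOX1, KEAP1 and GCLC) and 2 fell (SRXN1 and SLC7A11), against 50.8% of all genes called (24.7% higher and 26.1% lower). The 5 of 10 called are close to the share of all genes. Without either control library without EGF, or with replicates B and C alone, that group holds 1 library. Fewer of the 10 and fewer of all genes were then called under control siRNA. In the libraries labelled BRCA2 siRNA 4 of the 10 did not overlap between media, where 46.6% of all genes did not. Under control siRNA the count was 7 of 10, where 66.5% of all genes did not overlap. The median difference of the 10 was 0.11 in the libraries labelled BRCA2 siRNA and 0.12 under control siRNA, and that of all genes was 0.00 in both. The 2 withdrawal comparisons share no libraries but share the estimate of spread.

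**Figure D2:**
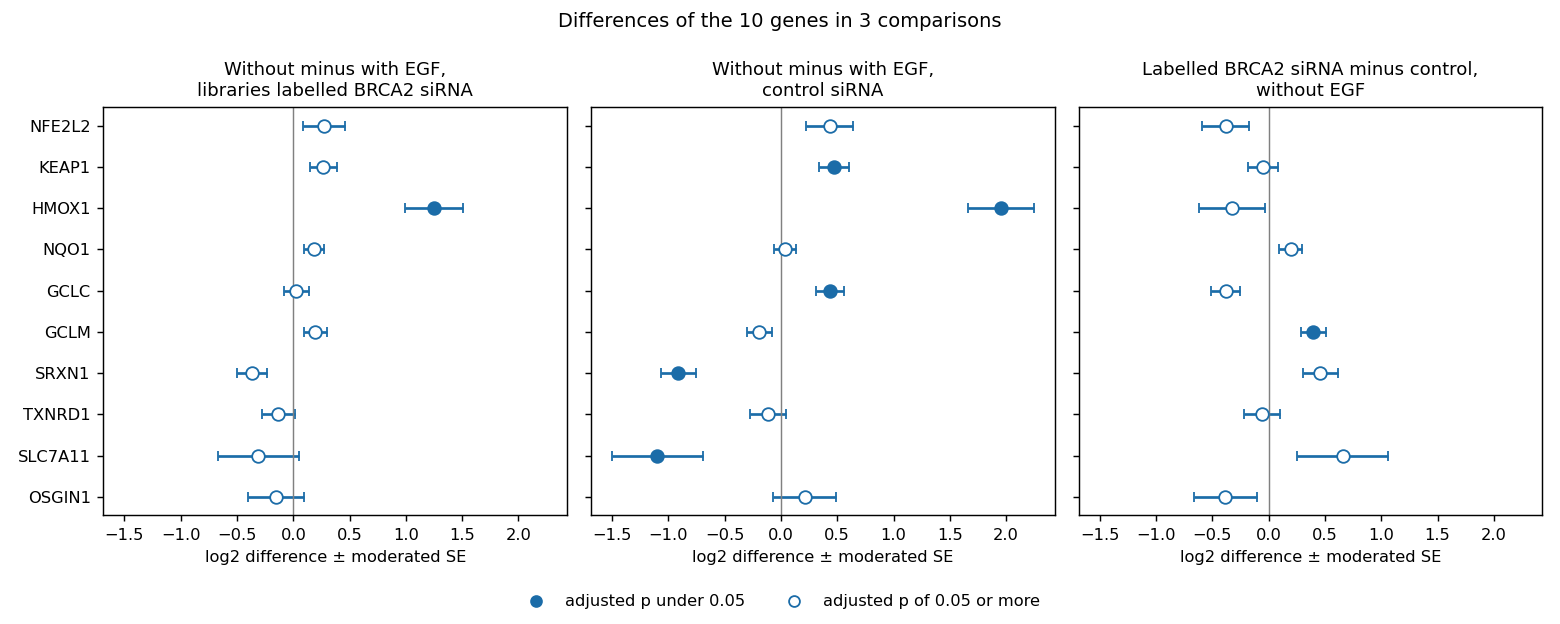
Log2 difference of each gene (horizontal axis) with its moderated standard error, for withdrawal of EGF in the libraries labelled BRCA2 siRNA, withdrawal under control siRNA, and the libraries labelled BRCA2 siRNA minus control siRNA without EGF; filled points have an adjusted p under 0.05. HMOX1 is filled in both withdrawal panels at 1.25 and 1.95, and GCLM alone is filled in the last panel at 0.40.

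Whether withdrawal acted differently under the 2 siRNAs was tested by the interaction, the withdrawal difference in the libraries labelled BRCA2 siRNA minus that under control siRNA. None of the 10 was called (0 with limma), against 3.32% of all genes, 1.38% higher and 1.93% lower. At an unadjusted p under 0.05 there were 3 of the 10 and 22.2% of all genes. The interaction was -0.71 ± 0.39 for HMOX1 (adjusted p = 0.313 with limma), 0.54 ± 0.20 for SRXN1 (0.153), 0.39 ± 0.15 for GCLM (0.167), -0.41 ± 0.17 for GCLC (0.189) and 0.79 ± 0.54 for SLC7A11 (0.428). The responses of these genes are therefore not shown to differ between the siRNAs, although some were called under only 1 of them.

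Between the libraries labelled BRCA2 siRNA and control siRNA without EGF, GCLM was the only gene of the 10 past the threshold. It was higher by 0.40 ± 0.11, or 1.32-fold (n = 3 and 2, limma adjusted p = 0.03), in a comparison where 20.5% of all genes were called, 11.2% higher and 9.36% lower. The difference was 0.59 within replicate A and 0.28 within B and C. The call ended with no filter (adjusted p = 0.0631), under quantile normalization (0.30, adjusted p = 0.0928) and with replicates B and C alone (0.28, adjusted p = 0.613). It also ended without BRCA2 siRNA without EGF replicates A (0.32, adjusted p = 0.111) or B (0.37, 0.0936) and without control siRNA without EGF replicates A (0.35, 0.201) or C (0.45, 0.1), and its 19 alternatives ran between 0.00962 and 0.613.

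The other 9 genes did not pass in that comparison. GCLC was at -0.38 ± 0.13 (limma adjusted p = 0.0521) and SRXN1 at 0.46 ± 0.15 (0.0535), and they passed in 6 and 4 of their 19 alternatives. SLC7A11 was at 0.66 ± 0.40 (limma adjusted p = 0.271), NFE2L2 at -0.38 ± 0.21 (0.213), OSGIN1 at -0.38 (0.356), HMOX1 at -0.33 ± 0.29 (0.458), NQO1 at 0.19 (0.183), and KEAP1 at -0.05 and TXNRD1 at -0.06 (both 0.834). The labelled groups did not overlap in 7 of the 10, where 62.3% of all genes did not overlap. The median of the 10 was -0.05, and that of all genes 0.01. These 2 groups were also fitted alone, with no libraries with EGF in the estimate of spread. There 6 of the 10 were called: GCLM and GCLC, NFE2L2 (limma adjusted p = 0.00183), SLC7A11 (0.00309), HMOX1 (0.0355) and OSGIN1 (0.0459). Over all genes, 6780 of 17673 tested were called in that fit, in place of 3687 of 17945. These libraries are also those of the withdrawal comparisons, so the values are not separate evidence from them.

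With EGF none of the 10 genes was called between the siRNA labels. The differences ran between -0.23 and 0.38, with 0 calls by limma (each adjusted p = 0.999), against 0.00557% of all genes. At an unadjusted p under 0.05 there were 0 of the 10 and 2.83% of all genes, and the labelled groups overlapped in all 10, where 5.88% of all genes did not overlap.

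Within the libraries with EGF, replicates B and C differed by up to 1.42 in these genes. SLC7A11 was higher in B than in C by 1.42 among those labelled BRCA2 siRNA and by 1.28 under control siRNA. OSGIN1 was higher in B by 0.71 and 1.02, NFE2L2 by 0.77 and 0.44, TXNRD1 by 0.50 and 0.52, GCLC by 0.30 and 0.42, and SRXN1 by 0.26 and 0.26, in the same order of siRNAs. HMOX1 was lower in B by -0.95 and -0.71, and KEAP1 by -0.38 and -0.38. GCLM was at -0.15 and -0.21 and NQO1 at -0.07 and 0.09.

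Counted at 0.25 or more the same way under both siRNAs, a limit chosen after the values were seen, 6 of the 10 were higher in B and 2 were lower, against 17.6% and 16.4% of all genes (34.0% together). No test is given, since each difference sets 1 library against 1. Of 10 ATF4 and stress genes, all but VLDLR (0.18 and -0.10) were higher in B under both siRNAs, like SLC7A11. This was counted at any size of difference, not at 0.25, and no share of all genes was taken that way. SESN2, a stress-induced regulator of nutrient signalling, was higher in B by 2.26 and 2.41, the glutathione-degrading CHAC1 by 1.42 and 1.47, and asparagine synthetase ASNS by 1.42 and 1.41. ATF4 itself was higher by 0.24 and 0.48. The part of this difference in the results above was not tested beyond the values without single libraries.

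**Figure D3:**
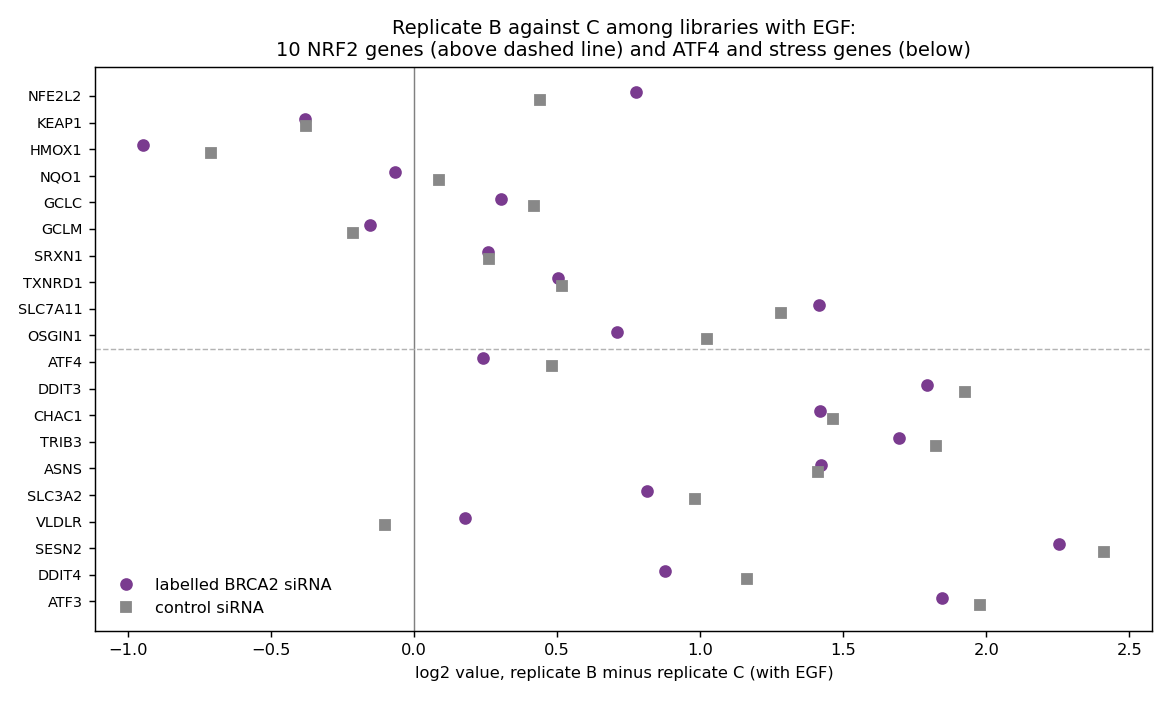
Log2 value of replicate B minus replicate C among the libraries with EGF (horizontal axis), for libraries labelled BRCA2 siRNA (circles) and control siRNA (squares), with the 10 NRF2 genes above the dashed line and 10 ATF4 and stress genes below it. SLC7A11 lies at 1.42 and 1.28, HMOX1 at -0.95 and -0.71, and the circle and square of a gene lie on the same side of 0 except for NQO1 and VLDLR.

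The wider pathway was described with lists written from textbook knowledge, to be read against the shares of all genes called on withdrawal (27.1% in the libraries labelled BRCA2 siRNA and 50.8% under control siRNA). Of 11 partners and regulators of NRF2, among them CUL3, the repressor BACH1, the small MAF genes and SQSTM1, 0 rose and 0 fell on withdrawal in the libraries labelled BRCA2 siRNA, and 1 rose and 3 fell under control siRNA. The largest of these calls was MAFF, a small MAF gene, at -1.42 ± 0.50 under control siRNA (limma adjusted p = 0.0326). That call ended in 6 of 19 alternatives. It ended with the groups compared alone and with replicates B and C alone. It also ended without either control library without EGF and without control siRNA with EGF replicates A or B. The medians of the list were -0.09 and -0.10 for the libraries labelled BRCA2 siRNA and control siRNA, beside 0.00 over all genes.

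Glutathione genes went both ways. Of 15 tested of 17 genes of glutathione synthesis and use, 4 rose and 6 fell in the libraries labelled BRCA2 siRNA (median -0.09), and 6 rose and 6 fell under control siRNA (median 0.01). GGCT, which cleaves gamma-glutamyl amino acids, was at -0.37 in the libraries labelled BRCA2 siRNA and at -0.79 under control siRNA (limma adjusted p = 0.00815 and 5.31e-05). Under control siRNA CHAC1, which degrades glutathione, fell by 3.85, its relative CHAC2 fell by 1.10 and GSTO1, an omega-class glutathione transferase, fell by 0.77. In the libraries labelled BRCA2 siRNA they were at -1.39, -0.64 and -0.27 (limma adjusted p = 0.0372, 0.00892 and 0.0378). In the libraries labelled BRCA2 siRNA the secreted peroxidase GPX3 rose by 0.84 ± 0.12 and the exporter ABCC1 by 0.42 ± 0.09, while GPX1 fell by 0.49 (limma adjusted p = 0.00124, 0.00737 and 0.00344). Under control siRNA these 3 went the same way, at 0.91, 0.52 and -0.57 (limma adjusted p = 0.000252, 0.00152 and 0.000671).

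Thioredoxin genes fell where they were called. Of 12 tested of 13 thioredoxin, peroxiredoxin and glutaredoxin genes, 0 rose and 4 fell in the libraries labelled BRCA2 siRNA (median -0.14), and 0 rose and 7 fell under control siRNA (median -0.31). Glutaredoxin GLRX fell by 1.46 under both siRNAs (limma adjusted p = 0.00534 in the libraries labelled BRCA2 siRNA and 0.00329 under control siRNA). Thioredoxin TXN, whose reads could be shared with pseudogene copies, fell under both, at -0.41 in the libraries labelled BRCA2 siRNA, a call that ended under quantile normalization, and -0.80 under control siRNA. The mitochondrial peroxiredoxin PRDX3 and glutaredoxin GLRX2 fell under control siRNA (-0.62 and -0.81). They also fell in the libraries labelled BRCA2 siRNA (-0.38 and -0.49), calls that ended in 7 and 5 of 19 alternatives. Of 6 genes that supply NADPH, 0 rose and 1 fell in the libraries labelled BRCA2 siRNA (median -0.04), and 0 rose and 2 fell under control siRNA (median -0.06). Malic enzyme ME1 fell in both (-0.65 and -1.19, limma adjusted p = 0.00736 and 0.000122), and the pentose phosphate enzyme TALDO1 fell by 0.49 under control siRNA.

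Other genes of heme and iron handling were mixed. Of 7 tested of 9, 1 rose and 1 fell in the libraries labelled BRCA2 siRNA (median 0.04), and 2 rose and 2 fell under control siRNA (median 0.23). HMOX2, the constitutive heme oxygenase, fell by 0.77 under control siRNA, where HMOX1 rose (limma adjusted p = 3.97e-05). Ferritin light chain FTL, which has pseudogene copies that could share its reads, rose by 0.58 under control siRNA (limma adjusted p = 0.000466). In the libraries labelled BRCA2 siRNA HMOX2 was at -0.22 and FTL at 0.28 (limma adjusted p = 0.0476 and 0.0313). Those calls ended in 15 and 6 of 19 alternatives. Of 2 tested of 4 genes that remove superoxide and peroxide, 0 rose and 1 fell in the libraries labelled BRCA2 siRNA (median -0.04), and 1 rose and 1 fell under control siRNA (median 0.16). SOD1 fell by 0.51 under control siRNA, a call that ended under quantile normalization, and catalase CAT rose by 0.82, a call that ended without control siRNA without EGF replicate C. SOD1 was also the gene that fell in the libraries labelled BRCA2 siRNA (-0.38, limma adjusted p = 0.012), a call that ended in 3 of 19 alternatives.

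Reductases and conjugating enzymes mostly rose where they were called. Of 17 tested of 18 such genes, 7 rose and 0 fell in the libraries labelled BRCA2 siRNA (median 0.09), and 9 rose and 4 fell under control siRNA (median 0.39). The aldehyde dehydrogenase ALDH3A1 rose by 1.16 ± 0.21 in the libraries labelled BRCA2 siRNA and by 2.91 ± 0.24, or 7.5-fold, under control siRNA (limma adjusted p = 0.00379 and 1.17e-05). Its relative ALDH3A2 rose by 2.05, the epoxide hydrolase EPHX1 by 1.45 and PIR, an iron-binding nuclear protein, by 1.32 under control siRNA. In the libraries labelled BRCA2 siRNA ALDH3A2 rose by 0.78 and EPHX1 by 0.59, calls that ended in 3 and 6 of 19 alternatives. AKR1C1, AKR1C2 and AKR1C3 are near-identical copies whose reads could be split, so their counts within this list are uncertain.

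ATF4, the factor of the amino acid response, also acts on SLC7A11, and genes of its response fell where they were called. Of 10 genes, 0 rose and 3 fell in the libraries labelled BRCA2 siRNA (median -0.97), and 0 rose and 8 fell under control siRNA (median -1.44). The 3 were ATF4, CHAC1 and TRIB3, and each call ended without BRCA2 siRNA without EGF replicate C, without BRCA2 siRNA with EGF replicate A and with replicates B and C alone. TRIB3 lost its call in 13 of 19 alternatives and CHAC1 in 8. Under control siRNA ATF4 itself was at -1.44 (limma adjusted p = 2.93e-05), ASNS at -2.88 and VLDLR at -0.97. CHAC1 and SLC3A2, the heavy chain that pairs with SLC7A11, stand in both this list and the glutathione list. As a check of the medium, of 7 genes that respond to EGF through the MAP kinase pathway 0 rose and 4 fell in the libraries labelled BRCA2 siRNA (median -0.84), and 1 rose and 6 fell under control siRNA (median -1.83). ETV4, an ETS factor, fell in both (-0.86 and -2.45), and SPRY4, a feedback inhibitor, fell by 1.90 under control siRNA (limma adjusted p = 1.15e-05). Of 85 differences that the naming rule admits from these lists, 69 lost their call with replicates B and C alone, but under control siRNA those of ALDH3A1, ALDH3A2, PIR, EPHX1, GGCT, GSTO1, CHAC1, CHAC2, TXN, ME1, HMOX2, ATF4, VLDLR, ETV4 and SPRY4 stayed past the threshold there.

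**Figure D4:**
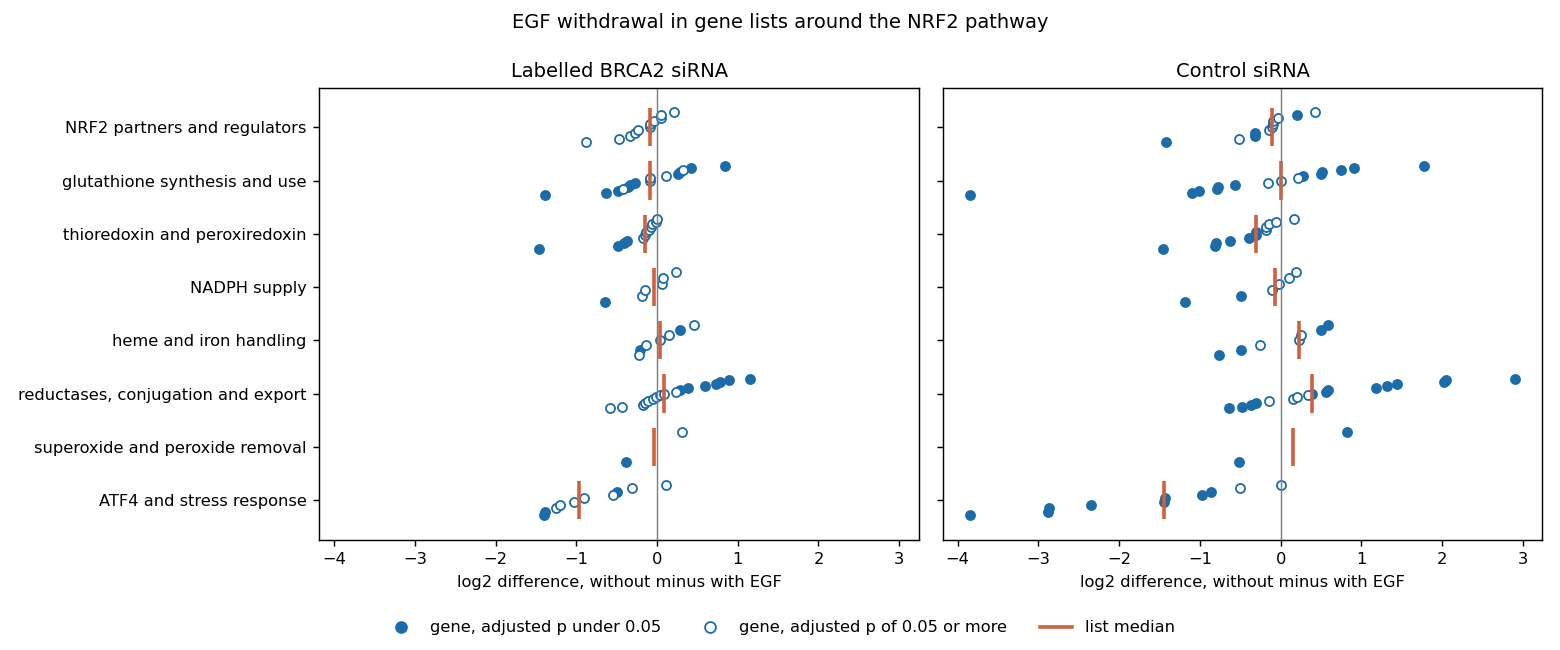
Log2 difference without minus with EGF (horizontal axis) of each tested gene of 8 lists around the NRF2 pathway, for libraries labelled BRCA2 siRNA and control siRNA; filled points have an adjusted p under 0.05 and the bar is the list median. Under control siRNA the called thioredoxin and ATF4 genes lie below 0, with an ATF4 median of -1.44, and the reductase list has a median of 0.39.

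Without EGF, the libraries labelled BRCA2 siRNA differed from control siRNA in some of the same lists. Over all genes 11.2% were higher and 9.36% lower there. Of the 11 partners and regulators 1 was higher and 0 lower, of the 15 glutathione genes 4 and 2, and of the 12 thioredoxin genes 4 and 0. Of the 6 NADPH genes 2 were higher and 0 lower, of the 7 heme and iron genes 1 and 1, and of the 2 superoxide and peroxide genes 0 and 0. The 17 reductase genes had 2 higher and 6 lower (median -0.38), the 10 ATF4 genes 4 higher and 0 lower (median 0.80), and the 7 EGF response genes 3 and 0. The share of higher calls over all genes was 54.4%, and 43.8% with no filter. ALDH3A1 was lower by -1.70 ± 0.24 and PIR by -0.88 ± 0.14 (limma adjusted p = 0.00207 and 0.00295). GSTO1, HMOX2 and ATF4 were higher by 0.60 ± 0.10, 0.64 ± 0.08 and 0.92 ± 0.14 (limma adjusted p = 0.0028, 0.00151 and 0.00274). Each of these 5 calls ended with replicates B and C alone. In the comparison with EGF, 0 genes of these 9 lists were called.

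The profiles most like those of NFE2L2 and NQO1 were sought among the tested genes with a symbol, by the root mean square distance between values centred on each gene's mean over the 11 libraries. NFE2L2, whose own root mean square deviation was 0.309, was nearest to KLF4 (0.0809), PKD1P6 (0.0824) and C1orf116 (0.0867). KLF4 is an epithelial transcription factor, and PKD1P6 is a pseudogene of a near-identical family, so its value is uncertain. NQO1, with an own deviation of 0.125, was nearest to TELO2 (0.0679), NLRX1 (0.0723) and PLCB3 (0.073). These distances describe the 11 libraries, which share their groups and the adjustment by replicate.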

How the data were processed

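RNA sequencing of 11 hTert-HME1 libraries was deposited by the authors as 1 table of log2 values (-2.94 to 20.62) for 40460 Ensembl genes. Per the submitters' processing notes, tools included TopHat2 2.0.11, limma and DESeq2, and the build was hg19, with no roles stated. For the read counter, annotation and log2 transform, nothing is given in the sources used here. Symbols were matched through a RefSeq-based name table for 37585 genes (92.9%). Genes at 10 or more on the linear scale (3.32 in log2) in at least 2 libraries were tested. A limma 3.58.1 model (R 4.3.3) with 4 group means, empirical Bayes moderation and a trend was fitted to all 11 libraries, two-sided, with Benjamini-Hochberg adjustment over the 17945 genes and a threshold of 0.05. Errors after ± are moderated standard errors. The code was tested on simulated data. Pathway genes were named by rule, at most 4 per list and comparison with the smallest p past the threshold, and the text names some of them. A gene named for 1 siRNA may also have passed under the other. Members and lists were chosen with earlier results of these data known. Same letters did not correlate over 0.1 in every pair of libraries, so no pairing was used in the reported fit. With EGF they did for B (0.695) and C (0.70) but not for A (-0.118), and the other pairs ran between -0.366 and 0.037. This check cannot show that the letters were unpaired. The adjustment before deposit ties the A libraries to the rest in each gene. In control siRNA without EGF the deviations of A and C are mirror images, as that group has 2 libraries. Alternatives covered the filter, quantile scaling, groups alone, a replicate block, a term for replicate A, replicates B and C alone, no trend, and each library left out.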

Additional observations from a re-analysis of the deposited data

Results flagged for a closer look

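In 8 genes of the pathway lists the response to EGF withdrawal differed between the siRNAs by the interaction test (limma adjusted p). The interaction is the withdrawal difference in the libraries labelled BRCA2 siRNA minus that under control siRNA. Called were 3 of 17 reductase genes, 1 of 7 heme and iron genes, 1 of 10 ATF4 genes and 3 of 7 EGF response genes. The other lists held no call, and over all genes 3.32% were called. ALDH3A1 had an interaction of -1.75 ± 0.32 (adjusted p = 0.0276), its rise being 1.16 in the libraries labelled BRCA2 siRNA and 2.91 under control siRNA. ALDH3A2 had -1.27 ± 0.29 (limma adjusted p = 0.0412) and PIR -0.94 ± 0.19 (limma adjusted p = 0.0307). HMOX2 had 0.55 ± 0.11 (limma adjusted p = 0.0307). ATF4 had 0.95 ± 0.19 (limma adjusted p = 0.0324). Among EGF response genes SPRY4 had 1.59 ± 0.21 (limma adjusted p = 0.0167), ETV4 1.59 ± 0.27 (limma adjusted p = 0.0235) and ETV5 1.47 ± 0.29 (limma adjusted p = 0.0304). Each of these 8 calls ended with replicates B and C alone and without any 1 of 5 libraries, BRCA2 siRNA without EGF replicate B, BRCA2 siRNA with EGF replicate C, control siRNA without EGF replicates A and C, and control siRNA with EGF replicate A. Without BRCA2 siRNA without EGF replicate A, all but SPRY4 ended too. Without BRCA2 siRNA with EGF replicate A, the calls of HMOX2, PIR, ALDH3A2, ATF4 and ETV5 ended, and without control siRNA with EGF replicate B that of ALDH3A2. HMOX2 also lost its call with no filter, under quantile normalization and with no trend, and ATF4 and ALDH3A2 with no trend. No cause was tested.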

How the results depend on the processing

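With replicates B and C alone, where 1 group has a single library assumed to vary like the rest, genes called numbered 46 for withdrawal in the libraries labelled BRCA2 siRNA (4871 in the reported fit), 1975 for withdrawal under control siRNA (9121), and 0 for the siRNA comparison without EGF (3687), with EGF (1) and the interaction (595), and 0 members were called. Leaving out 1 library at a time gave 2228 to 6196, 6070 to 10023, 515 to 4766, 0 to 1 and 0 to 1606 genes in that order, and 1 to 2, 2 to 6, 0 to 3, 0 and 0 members. The siRNA comparison without EGF called 6780 of 17673 genes and 6 members with its groups alone. It called 0 members with no filter, 2 under quantile normalization, 2 with the stricter filter and 2 with no trend. That with EGF called 0 genes with groups alone, with a term for replicate A or with the replicate block. Withdrawal in the libraries labelled BRCA2 siRNA called 3 members under quantile normalization and 2 with no trend. The interaction called 375 genes with no trend. A shift shared by a replicate letter was seen only in B and C with EGF. Such a shift in A could be hidden by the adjustment before deposit. The replicate block called 2 members for withdrawal in the libraries labelled BRCA2 siRNA, 2 in the siRNA comparison without EGF and 930 genes in the interaction. With the block NFE2L2 passed on withdrawal under control siRNA (0.53, limma adjusted p = 0.0284). Higher calls in the interaction were 41.7%, 28.8% with no filter and 28.3% with no trend. Signs that turned were TXNRD1 under quantile normalization (0.19 under control siRNA, 0.026 in the libraries labelled BRCA2 siRNA), BRCA2 itself in those libraries (0.015), GCLC withdrawal in the libraries labelled BRCA2 siRNA with B and C alone (-0.021), and in the siRNA comparison without EGF KEAP1 with the block (0.024) and NQO1 with B and C alone (-0.0012). Leaving out single libraries gave withdrawal differences under control siRNA of -0.11 to 0.19 for NQO1 and -0.065 to 0.45 for OSGIN1. In the libraries labelled BRCA2 siRNA it gave -0.028 to 0.12 for GCLC, -0.23 to 0.021 for TXNRD1, -0.62 to 0.091 for SLC7A11 and -0.28 to 0.075 for OSGIN1. Without EGF it gave -0.10 to 0.0099 for KEAP1, and with EGF -0.060 to 0.11 for BRCA2. Of members given as a range, 5 with EGF and 3 in the interaction changed sign somewhere. Causes were not tested. Depth is unknown.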
